A study of Equus caballus with 2 samples.

Results

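Semaphorins and ephrins, the guidance ligands of growing axons and vessels, and their plexin, neuropilin and Eph receptors were examined in equine endometrial fibroblasts with and without transforming growth factor beta 1 (TGF-β1). The genes were taken by symbol as every semaphorin of classes 3 to 7, every plexin, both neuropilins, every EphA and EphB receptor and every ephrin-A and ephrin-B, which gave 53 of the 21426 genes listed for both libraries. Among other aims, the study set out to follow the transcriptional response of these cells to TGF-β1, which promotes fibrosis of the endometrium. Passage 3 fibroblasts from the endometrium of 4 mares (*Equus caballus*, female) were cultured on hydrogels coated with collagen, in medium whose serum was lowered from 10% to 4% and then replaced by 0.1% bovine serum albumin. The control group received nothing further and the TGF-β1 group received 10 ng/ml human recombinant TGF-β1 for 24 h. The cells of the 4 mares were then pooled within each group, and 1 droplet library was prepared from each pool, so that every captured transcript bears a unique molecular identifier (UMI). The ages of the mares were not given in the labels, and the share of each mare in each library was not determined here.

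Semaphorins are secreted or anchored ligands that steer moving cells by reshaping the cytoskeleton, and they act through plexins, with neuropilins as co-receptors for most of the secreted class. Ephrins stay attached to the cell surface, so they meet Eph receptor tyrosine kinases only where cells touch, and both partners can pass on a signal. Outside the nervous system both families act in blood vessel growth and in the adhesion, migration and sorting of mesenchymal cells.

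The control library held 4384 barcodes and the TGF-β1 library 5124, and 6 barcode sequences occurred in both. After the cell filters of the study, 3865 control cells with 210497250 UMIs and 4513 TGF-β1 cells with 219731144 UMIs were kept, at a median depth of 50313 and 43142 UMIs. Levels are given as UMIs per 1000000 of the library (CPM) with exact 95% Poisson intervals in brackets, and differences as log2 ratios (TGF-β1 divided by control) with exact 95% binomial intervals in brackets. These intervals cover counting error only. With 1 library per condition there is no replicate and no test, and library and treatment cannot be told apart. The UMIs were counted at the 3′ end of transcripts and not divided by transcript length, and levels of different genes are set side by side only on that scale.

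Of the 53 genes, 34 averaged 1 CPM or more over both libraries, of which 18 were higher and 16 lower in TGF-β1 than in control cells. *PLXNA4*, *EPHA6*, *PLXNA2*, *SEMA7A* and *SEMA6D* had more than 2-fold higher levels after TGF-β1, and *SEMA3A* was more than 2-fold lower. The 5 higher genes made up 14.7% of the 34, beside 3.45% of all 12116 genes that averaged 1 CPM or more, and the 1 lower gene made up 2.94%, beside 3.46%. At a limit of 1.5-fold, 7 genes were higher, or 20.6% of the 34 beside 7.64% of all genes, and 5 were lower, or 14.7% beside 9.36%. The 34 genes had a median log2 ratio of 0.12 and their quartiles were -0.31 and 0.48, whereas the 12116 genes had a median of -0.01 and quartiles of -0.25 and 0.21. The guidance genes thus moved in both directions around a median near that of all genes. The 6 genes past 2-fold were 3 of 12 semaphorins, 2 of 9 plexins and neuropilins and 1 of 9 Eph receptors. None of the 4 ephrins among the 34 genes passed 2-fold. With so few genes per family, no contrast between families is read from these counts.

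**Figure D1:**
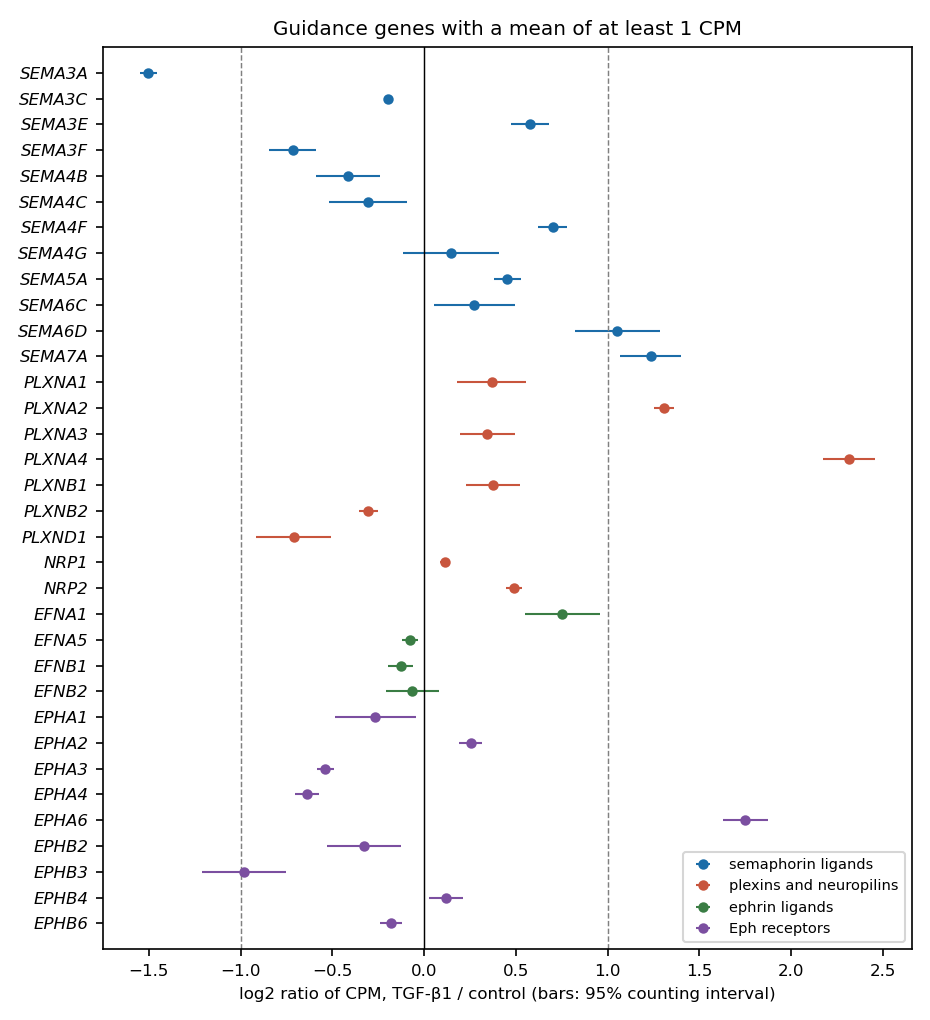
Log2 ratio of CPM in the TGF-β1 over the control library (x axis) for the 34 genes that averaged 1 CPM or more (y axis, coloured by family). Each point compares the 2 libraries, bars are exact 95% intervals for counting error only, and dashed lines mark 2-fold. *PLXNA4* lies farthest to the right at 2.32 and *SEMA3A* farthest to the left at -1.50.

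Among the ligands, the secreted class 3 semaphorins held most of the transcripts. The summed level of the 7 class 3 genes was 368 CPM in the control and 289 CPM in the TGF-β1 library, and all 20 semaphorins together reached 402 CPM in the control and 336 CPM in the TGF-β1 library. *SEMA3C*, which acts through both neuropilins and is best known from the development of the cardiac outflow tract, gave 78.5% of the control and 87.3% of the TGF-β1 UMIs of the class. It had 60854 UMIs in the control and 55358 in the TGF-β1 library, that is 289 CPM (287 to 291) in control and 252 CPM (249.8 to 254) in TGF-β1 cells, a log2 ratio of -0.20 (-0.22 to -0.18). After each cell was thinned at random to 20000 UMIs to equalise depth, *SEMA3C* was found in 96.9% (96.3% to 97.4%) of cells in the control and 95.7% (95.04% to 96.3%) in the TGF-β1 library, and without thinning in 99.6% and 98.96%. A UMI of this transcript was thus found in nearly every cell of both libraries, at a level that differed little between them. The part that free RNA adds to these shares was not measured.

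*SEMA3A*, the ligand that collapses axonal growth cones through neuropilin 1 and class A plexins, showed the largest difference toward lower levels among the 34 genes. It had 13990 UMIs in the control and 5151 in the TGF-β1 library, or 66.5 CPM (65.4 to 67.6) in control and 23.4 CPM (22.8 to 24.1) in TGF-β1 cells. The log2 ratio was -1.50 (-1.55 to -1.46), a level 2.84 times as high in control as in TGF-β1 cells. The difference was seen both in how many cells had a UMI and in how many UMIs those cells held. After thinning, 46.3% (44.7% to 47.9%) of cells in the control and 24.8% (23.6% to 26.1%) in the TGF-β1 library had a UMI, and the cells with a UMI held on average 2.67 and 1.89 UMIs. Without thinning, the shares were 64.6% and 37.9%. The 5% of cells with the most *SEMA3A* held 35.7% and 47.2% of its UMIs in control and TGF-β1 cells. The like shares were 23.6% and 25.5% for *PLXNB2*, 29.6% and 29.5% for *EFNA5*, 31.9% and 34.6% for *EPHA3* and 38.7% and 38.7% for *EPHA4*. Each of these genes had a lower level than *SEMA3A* in control cells, and that of *PLXNB2* was close to it in TGF-β1 cells. In control cells the share of *SEMA3A* thus lay between those of *EPHA3* and *EPHA4*. The highest count in a thinned cell was 39 UMIs in the control and 38 in the TGF-β1 library, so single cells with much *SEMA3A* were present in both. *SEMA3A* made up 18.0% of the control and 8.12% of the TGF-β1 UMIs of class 3.

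The other class 3 genes of at least 1 CPM went in opposite directions. *SEMA3E*, which binds plexin D1 without a neuropilin, had 5.88 CPM in control and 8.77 CPM in TGF-β1 cells, a log2 ratio of 0.58 (0.47 to 0.68). *SEMA3F*, a ligand that prefers neuropilin 2, had 6.04 CPM in control and 3.67 CPM in TGF-β1 cells, a log2 ratio of -0.72 (-0.85 to -0.59). In the RefSeq annotation of the horse assembly TB-T2T, which is not the build of the counts, *SEMA3E*, *SEMA3A* and *SEMA3D* follow each other on the chromosome with 0 other protein-coding genes between them. These neighbours differed in direction, with *SEMA3E* higher, *SEMA3A* lower and the scarce *SEMA3D* at 79 UMIs in the control and 162 in the TGF-β1 library.

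Of the anchored semaphorins, *SEMA7A* and *SEMA6D* were the genes past 2-fold. *SEMA7A* encodes a semaphorin held by a lipid anchor that binds plexin C1 and the integrin β1 chain. It had 418 UMIs in the control and 1027 in the TGF-β1 library, 1.99 CPM (1.80 to 2.19) in control and 4.67 CPM (4.39 to 4.97) in TGF-β1 cells, and a log2 ratio of 1.23 (1.07 to 1.40). It was found in 3.44% (2.89% to 4.07%) of cells in the control and 9.04% (8.22% to 9.91%) in the TGF-β1 library after thinning and in 9.42% and 19.2% without it. The cells with a UMI held 1.11 and 1.09 UMIs on average, and at so low a level a cell without a UMI cannot be told from one that lacks the transcript. *SEMA6D*, a transmembrane ligand of class A plexins, was close to the 2-fold limit. It had 228 UMIs in the control and 493 in the TGF-β1 library, 1.08 CPM (0.947 to 1.23) in control and 2.24 CPM (2.05 to 2.45) in TGF-β1 cells, and a log2 ratio of 1.05 (0.82 to 1.28), an interval that includes values under 2-fold. A UMI of *SEMA6D* was found in 1.86% (1.46% to 2.34%) of cells in the control and 4.50% (3.91% to 5.14%) in the TGF-β1 library after thinning, and in 4.97% and 9.02% before it.

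*SEMA4F* and *SEMA5A* were the most abundant transmembrane semaphorins and both were higher in TGF-β1 cells by less than 2-fold. *SEMA4F* had 1983 UMIs in the control and 3362 in the TGF-β1 library, 9.42 CPM (9.01 to 9.84) in control and 15.3 CPM (14.8 to 15.8) in TGF-β1 cells, a log2 ratio of 0.70 (0.62 to 0.78). Its UMIs were found in 16.02% (14.9% to 17.2%) of cells in the control and 24.7% (23.4% to 25.9%) in the TGF-β1 library after thinning (36.5% and 47.8% without). *SEMA5A*, whose protein carries thrombospondin repeats, had 2618 UMIs in the control and 3742 in the TGF-β1 library, 12.4 CPM (12.0 to 12.9) in control and 17.0 CPM (16.5 to 17.6) in TGF-β1 cells, a log2 ratio of 0.45 (0.38 to 0.53), and was found in 16.5% (15.3% to 17.7%) of cells in the control and 23.4% (22.2% to 24.7%) in the TGF-β1 library (32.5% and 40.8% without thinning). The remaining members of classes 4 and 6 with at least 1 CPM were low. *SEMA4B* had 2.92 and 2.19 CPM in control and TGF-β1 cells (log2 ratio -0.41) and *SEMA4C*, a ligand of plexin B2, had 1.91 and 1.55 CPM (-0.31). *SEMA4G* had 1.08 and 1.20 CPM (0.14, -0.12 to 0.41), an interval that includes 0, and *SEMA6C* had 1.44 and 1.74 CPM (0.27).

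The plexins, the receptors that carry the semaphorin signal across the membrane, were together higher after TGF-β1, at 62.0 CPM in the control and 93.4 CPM in the TGF-β1 library for 9 genes, a log2 ratio of 0.59 (0.56 to 0.62). Most of this lay in *PLXNA2* and *PLXNA4*, partners of neuropilins in class 3 signalling and direct receptors of class 6 semaphorins. *PLXNA2* had 3789 UMIs in the control and 9782 in the TGF-β1 library, 18.0 CPM (17.4 to 18.6) in control and 44.5 CPM (43.6 to 45.4) in TGF-β1 cells, a log2 ratio of 1.31 (1.25 to 1.36). It was found in 24.1% (22.7% to 25.4%) of cells in the control and 49.7% (48.2% to 51.1%) in the TGF-β1 library after thinning, and the unthinned shares were 45.5% and 72.3%. The cells with a *PLXNA2* UMI held 1.37 and 1.70 UMIs on average. No other plexin was found in as many TGF-β1 cells.

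*PLXNA4* had the largest log2 ratio of all 34 genes. It had 490 UMIs in the control and 2548 in the TGF-β1 library, or 2.33 CPM (2.13 to 2.54) in control and 11.6 CPM (11.2 to 12.1) in TGF-β1 cells, and a log2 ratio of 2.32 (2.18 to 2.46), which is a 4.98-fold higher level. A UMI of *PLXNA4* was found in 3.08% (2.56% to 3.67%) of cells in the control and 14.9% (13.9% to 16.01%) in the TGF-β1 library after thinning and in 7.81% and 25.2% without it. Even so most TGF-β1 cells had no *PLXNA4* UMI at this depth. *PLXNA4* gave 3.76% of the control and 12.4% of the TGF-β1 UMIs of the plexins, and *PLXNA2* gave 29.0% of the control and 47.7% of the TGF-β1 UMIs.

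*PLXNB2*, a receptor of class 4 semaphorins, was the most abundant plexin of the control cells and was lower after TGF-β1. It had 6484 UMIs in the control and 5483 in the TGF-β1 library, 30.8 CPM (30.1 to 31.6) in control and 24.95 CPM (24.3 to 25.6) in TGF-β1 cells, a log2 ratio of -0.30 (-0.36 to -0.25), and was found in 42.8% (41.3% to 44.4%) of cells in the control and 36.6% (35.2% to 38.0%) in the TGF-β1 library (72.5% and 63.3% without thinning). It thereby passed from the leading place to the second behind *PLXNA2*, from 49.7% to 26.7% of plexin UMIs. The other plexins were low. *PLXNA1* had 1.94 and 2.50 CPM in control and TGF-β1 cells, a log2 ratio of 0.37, and *PLXNA3* had 3.05 and 3.86 CPM, a log2 ratio of 0.34. *PLXNB1*, the receptor of *SEMA4D*, had 3.11 and 4.04 CPM, a log2 ratio of 0.38. *PLXND1*, the receptor of *SEMA3E*, had 2.39 and 1.46 CPM, a log2 ratio of -0.71 (-0.92 to -0.51). In the summed libraries this receptor was thus lower and its ligand higher after TGF-β1, and their relation within cells was not tested.

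As a pair the neuropilins were more abundant than the plexins, the EphA or the EphB receptors. *NRP1*, which binds *SEMA3A* and also the vascular growth factor VEGF-A, had 19974 UMIs in the control and 22573 in the TGF-β1 library, 94.9 CPM (93.6 to 96.2) in control and 103 CPM (101 to 104) in TGF-β1 cells, a log2 ratio of only 0.11 (0.09 to 0.14). An *NRP1* UMI was found in 67.5% (66.0% to 69.0%) of cells in the control and 77.0% (75.7% to 78.2%) in the TGF-β1 library after thinning and in 85.6% and 90.8% without it. *NRP2*, which binds *SEMA3F* and VEGF-C, had 7308 UMIs in the control and 10701 in the TGF-β1 library, 34.7 CPM (33.9 to 35.5) in control and 48.7 CPM (47.8 to 49.6) in TGF-β1 cells, a log2 ratio of 0.49 (0.45 to 0.53), and was found in 43.1% (41.5% to 44.6%) of cells in the control and 55.3% (53.9% to 56.8%) in the TGF-β1 library (70.9% and 78.8% without thinning). Both receptors were therefore found in more of the TGF-β1 cells, with the larger difference in level for *NRP2*.

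Since class 3 semaphorins other than *SEMA3E* generally need a neuropilin and a class A plexin in the same cell, their joint detection was counted in the thinned cells. A UMI of at least 1 neuropilin together with a UMI of at least 1 class A plexin was found in 27.2% (25.8% to 28.6%) of cells in the control and 54.6% (53.2% to 56.1%) in the TGF-β1 library. At least 1 neuropilin was found in 79.1% (77.8% to 80.4%) of cells in the control and 87.5% (86.5% to 88.5%) in the TGF-β1 library, and at least 1 class A plexin in 33.3% (31.8% to 34.8%) of cells in the control and 61.1% (59.7% to 62.6%) in the TGF-β1 library. The receptor pair was thus detected in more cells of the TGF-β1 library, while the ligand *SEMA3A* was detected in fewer. Cells with *SEMA3A* and the receptor pair together were at similar shares, 13.2% (12.2% to 14.4%) of cells in the control and 14.8% (13.8% to 15.9%) in the TGF-β1 library. *PLXNA2* was found in 24.9% (22.9% to 26.9%) of control cells with a *SEMA3A* UMI and in 23.4% (21.6% to 25.3%) of those without, and in TGF-β1 cells in 53.7% (50.7% to 56.7%) and 48.3% (46.7% to 50.05%). The higher detection of *PLXNA2* after TGF-β1 was therefore seen in cells with and without *SEMA3A*. *PLXNA2* and *PLXNA4* were found together in 0.931% (0.653% to 1.29%) of cells in the control and 8.04% (7.27% to 8.88%) in the TGF-β1 library. A share with both genes depends on the depth of 20000 UMIs and misses cells in which either transcript was not captured.

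In their sums the ephrins differed little between the libraries. The 5 ephrin-A genes summed to 41.6 CPM in the control and 40.9 CPM in the TGF-β1 library and the 3 ephrin-B genes to 21.3 CPM in the control and 19.8 CPM in the TGF-β1 library. *EFNA5*, a lipid-anchored ligand of EphA receptors, gave 93.6% of the control and 90.3% of the TGF-β1 UMIs of the ephrin-A genes. It had 8193 UMIs in the control and 8111 in the TGF-β1 library, 38.9 CPM (38.1 to 39.8) in control and 36.9 CPM (36.1 to 37.7) in TGF-β1 cells, a log2 ratio of -0.08 (-0.12 to -0.03), and was found in 42.7% (41.1% to 44.3%) of cells in the control and 40.7% (39.3% to 42.2%) in the TGF-β1 library (63.3% and 59.2% without thinning). *EFNB1*, a transmembrane ligand of EphB receptors, had 3683 UMIs in the control and 3516 in the TGF-β1 library, 17.5 CPM (16.9 to 18.1) in control and 16.001 CPM (15.5 to 16.5) in TGF-β1 cells, a log2 ratio of -0.13 (-0.20 to -0.06), and was found in 27.5% (26.1% to 29.0%) of cells in the control and 25.5% (24.3% to 26.8%) in the TGF-β1 library (52.7% and 46.8% without thinning). Neither of the leading ephrins thus moved by more than a small fraction of its level. *EFNA1*, which binds EphA2 in particular, had the largest log2 ratio of the ephrins of at least 1 CPM, 0.75 (0.55 to 0.96), at 1.49 CPM in control and 2.50 CPM in TGF-β1 cells. *EFNB2*, the ligand of EphB4 in vessels, had 3.76 CPM in control and 3.60 CPM in TGF-β1 cells, a log2 ratio of -0.06 (-0.21 to 0.08) whose interval includes 0, and its thinned shares of 6.44% and 6.56% went the other way, so no order was read from them.

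Among the EphA receptors, *EPHA6* stood apart from *EPHA3* and *EPHA4*. *EPHA6* had 699 UMIs in the control and 2454 in the TGF-β1 library, 3.32 CPM (3.08 to 3.58) in control and 11.2 CPM (10.7 to 11.6) in TGF-β1 cells, a log2 ratio of 1.75 (1.63 to 1.87). It was found in 4.17% (3.56% to 4.84%) of cells in the control and 12.8% (11.8% to 13.8%) in the TGF-β1 library after thinning (7.63% and 21.0% without), and the cells with a UMI held 1.65 and 1.73 UMIs on average. The receptor thus went from 3.72% to 14.2% of the EphA UMIs. *EPHA3*, a receptor of *EFNA5* and the most abundant EphA gene, had 9039 UMIs in the control and 6498 in the TGF-β1 library, 42.9 CPM (42.1 to 43.8) in control and 29.6 CPM (28.9 to 30.3) in TGF-β1 cells, a log2 ratio of -0.54 (-0.58 to -0.49). It was found in 41.4% (39.9% to 43.0%) of cells in the control and 32.3% (30.9% to 33.7%) in the TGF-β1 library (60.2% and 49.7% without thinning). *EPHA4*, which binds ephrins of both classes, had 4540 UMIs in the control and 3045 in the TGF-β1 library, 21.6 CPM (20.9 to 22.2) in control and 13.9 CPM (13.4 to 14.4) in TGF-β1 cells, a log2 ratio of -0.64 (-0.70 to -0.57), and was found in 26.5% (25.1% to 27.9%) of cells in the control and 21.5% (20.3% to 22.7%) in the TGF-β1 library (47.0% and 38.6% without thinning). Both were lower in TGF-β1 cells by less than 2-fold. *EPHA2*, the receptor of *EFNA1*, had 3853 UMIs in the control and 4795 in the TGF-β1 library, 18.3 CPM (17.7 to 18.9) in control and 21.8 CPM (21.2 to 22.4) in TGF-β1 cells, a log2 ratio of 0.25 (0.19 to 0.32), and was found in 27.8% (26.4% to 29.3%) of cells in the control and 31.7% (30.4% to 33.1%) in the TGF-β1 library (54.5% and 56.0% without thinning). *EPHA1* had 1.76 and 1.47 CPM (log2 ratio -0.27, -0.49 to -0.05). With these opposite differences, the 9 EphA genes summed to 89.2 CPM in the control and 78.7 CPM in the TGF-β1 library.

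The EphB receptors were led by *EPHB6*, whose kinase domain is inactive. It had 4905 UMIs in the control and 4518 in the TGF-β1 library, 23.3 CPM (22.7 to 24.0) in control and 20.6 CPM (19.97 to 21.2) in TGF-β1 cells, a log2 ratio of -0.18 (-0.24 to -0.12), and was found in 35.0% (33.5% to 36.5%) of cells in the control and 32.6% (31.2% to 34.0%) in the TGF-β1 library (62.4% and 56.5% without thinning). *EPHB4*, the receptor of *EFNB2*, had 8.62 and 9.37 CPM in control and TGF-β1 cells (log2 ratio 0.12, 0.03 to 0.21), and *EPHB2* had 2.15 and 1.71 CPM (-0.33, -0.53 to -0.13). *EPHB3* lay just short of 2-fold lower, with 2.18 and 1.11 CPM (-0.98, -1.21 to -0.75), and passed that limit under 2 of the 10 alternatives that recompute the ratios. An EphA receptor and an ephrin-A were found in the same thinned cell in 33.7% (32.2% to 35.2%) of cells in the control and 32.5% (31.2% to 33.9%) in the TGF-β1 library, and an EphB receptor and an ephrin-B in 15.99% (14.8% to 17.2%) of cells in the control and 13.7% (12.7% to 14.8%) in the TGF-β1 library.

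**Figure D2:**
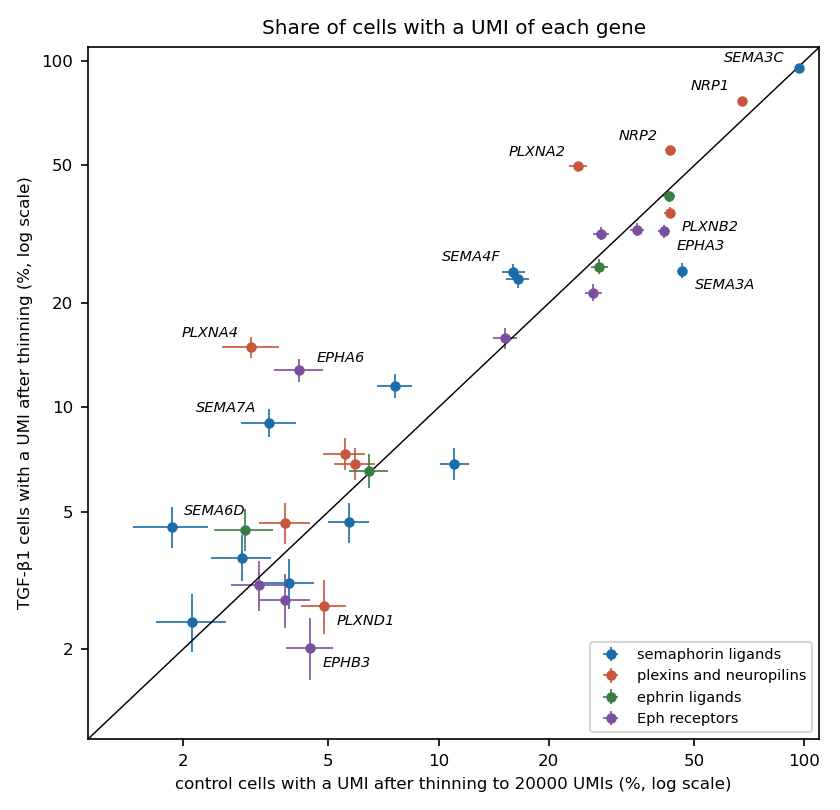
Share of control cells (x axis, %) and of TGF-β1 cells (y axis, %) with at least 1 UMI of each of the 34 genes after every cell was thinned to 20000 UMIs, both axes on a log scale. Bars are exact 95% binomial intervals and the line marks equal shares. *PLXNA2* (24.1% and 49.7%) and *PLXNA4* (3.08% and 14.9%) lie above the line and *SEMA3A* (46.3% and 24.8%) below it.

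The other 19 genes had a mean under 1 CPM, and their UMIs in the control and the TGF-β1 library are given without a ratio. Among the semaphorins these were *SEMA3B* (95 and 38), *SEMA3D* (79 and 162), *SEMA3G* (4 and 2), *SEMA4A* (159 and 158), *SEMA4D* (74 and 27), *SEMA5B* (6 and 7), *SEMA6A* (36 and 80) and *SEMA6B* (26 and 16). The plexins under the limit were *PLXNB3* (6 and 5) and *PLXNC1* (68 and 93), the latter a receptor of *SEMA7A*. The ephrins were *EFNA2* (120 and 153), *EFNA3* (54 and 82), *EFNA4* (72 and 83) and *EFNB3* (18 and 35), and in the RefSeq annotation of TB-T2T *EFNA3* lies between *EFNA1* and *EFNA4*. The Eph receptors were *EPHA5* (193 and 92), *EPHA7* (69 and 67), *EPHA10* (13 and 12) and *EPHB1* (41 and 85), and *EPHA8* had 0 UMIs in both libraries, with upper Poisson limits of 0.0175 CPM in control and 0.0168 CPM in TGF-β1 cells.

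Per thinned cell, a median of 7 of the 53 genes was detected in both libraries, with a mean of 6.66 in control and 7.11 in TGF-β1 cells. The mean number of semaphorins was 2.19 and 2.18, and that of plexins and neuropilins 2.01 and 2.56. For ephrins it was 0.823 and 0.807, and for Eph receptors 1.64 and 1.56. Only the count of semaphorin receptors was thus higher by more than a small fraction. The sum of all 53 genes was 782 CPM in the control and 753 CPM in the TGF-β1 library. No cell type that should lack these genes was identified, so the UMIs that free RNA adds to a cell were not measured, and shares of a few percent are not read as proof of expression in those cells.

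To see how the genes varied among the fibroblasts, the cells of both libraries were clustered again on 2000 variable genes from which the 53 genes were left out. Cells were not assigned to mares, and the study reported a cluster made up almost wholly of the cells of a single mare. Differences between the rebuilt clusters therefore cannot be told apart from differences between mares. This gave 8 clusters, of which 7 held at least 50 cells of each library. Cluster 7, with 91 control and 38 TGF-β1 cells, was not compared. In all 7 clusters, 6 genes (*EFNA1*, *NRP2*, *PLXNA2*, *PLXNB1*, *SEMA4F* and *SEMA7A*) were higher and 9 genes (*EPHA3*, *EPHA4*, *EPHB3*, *PLXNB2*, *PLXND1*, *SEMA3A*, *SEMA3C*, *SEMA3F* and *SEMA4B*) were lower after TGF-β1. These 15 made up 44.1% of the 34 genes, and 5516 of all 12116 genes, or 45.5%, likewise had 1 direction in all 7 clusters. In the cluster left out, *SEMA4B* (0.83), *PLXNB2* (0.03) and *EPHA4* (0.02), which were among the 9 lower genes, had log2 ratios above 0, each with an interval that includes 0. *PLXNA4*, *EPHA6* and *SEMA6D* were higher in each of the 6 clusters where a ratio could be formed, while cluster 5 held 3 or fewer of their control UMIs.

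*SEMA3A* was more than 2-fold lower in each of the 7 compared clusters, with log2 ratios from -2.02 to -1.16. In the small cluster 7 it was lower by less than 2-fold (-0.59), at 157 and 104 CPM, the highest levels of the 8 clusters. Among the 7 its level differed as well, from 16.4 CPM in cluster 5 to 94.2 CPM in cluster 4 among control cells, and from 4.03 to 34.7 CPM in the same clusters among TGF-β1 cells. *PLXNA2* was the counterpart, more than 2-fold higher in each of the 7 compared clusters, with log2 ratios from 1.02 to 1.46, and higher by less than 2-fold in cluster 7 (0.85). The other genes past 2-fold were less even. *SEMA7A* was past 2-fold in 6 of 7 clusters, with a log2 ratio of 0.58 in cluster 3 and 1.75 in cluster 4. Cluster 3, whose 10 leading genes included *AREG*, *KRT7* and *KRT8*, already had the highest control level of *SEMA7A*, 3.06 CPM.

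*PLXNA4* was highest after TGF-β1 in clusters 4 and 1, going from 2.89 to 19.7 CPM and from 3.24 to 16.6 CPM, and its log2 ratios ran from 1.41 to 3.03 in the 6 clusters with a ratio. In cluster 7 the ratios of *PLXNA4* (0.22, with 22 and 9 UMIs) and *EPHA6* (0.73) were under 2-fold, with intervals that include 0. *EPHA6* had another distribution. After TGF-β1 it was highest in cluster 2, led by *ALDH2*, *CALCA* and *GRIK2*, where it went from 7.89 to 27.9 CPM, followed by cluster 4, led by *COL4A3*, *FAM216B* and *NLGN1*, where it went from 5.07 to 18.8 CPM. In cluster 3 it had 0.185 CPM in control and 1.44 CPM in TGF-β1 cells, with only 8 and 45 UMIs. *EPHA3* was highest in cluster 4, at 83.5 CPM in control and 57.4 CPM in TGF-β1 cells, and lowest in cluster 5, at 17.6 and 6.29 CPM. *NRP1* was highest in cluster 3, at 140.5 and 135 CPM, the only cluster of the 7 in which it was lower after TGF-β1.

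*SEMA3E* and *SEMA5A* varied widely in their ratios between clusters. *SEMA3E* ran from a log2 ratio of 1.18 in cluster 1 to -0.11 in cluster 6, whose leading genes were those of cell division (*CENPF*, *ASPM*, *CDC20*), and -0.79 in cluster 5 with 13 and 7 UMIs, and cluster 7 held 29 control and 1 TGF-β1 UMIs of it. *SEMA5A* ran from 1.38 in cluster 6 to -0.03 in cluster 5. Cluster 5, led by *CFD*, *CRABP2* and *SAA1*, had the lowest level of 20 of the 34 genes in control and of 23 in TGF-β1 cells, and also the lowest median depth of the 7 clusters, 41883.5 and 33842 UMIs per cell. The share of all genes that were lowest in cluster 5 was not determined, so these counts are not read as particular to the 34 genes. Differences of the ratio between clusters were not tested.

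**Figure D3:**
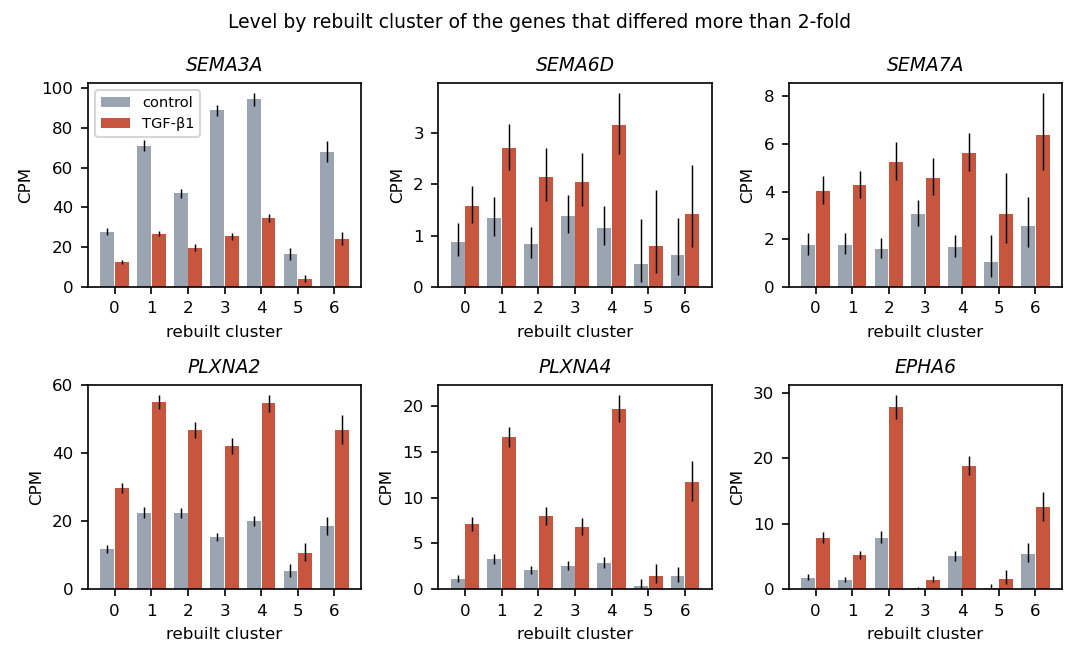
Level in CPM (y axis, starting at 0) of the 6 genes that differed more than 2-fold, by rebuilt cluster (x axis), in the control (grey) and the TGF-β1 library (red). Bars are summed UMIs of the cells of a cluster and library, and lines are exact 95% Poisson intervals. *SEMA3A* is lower and *PLXNA2* higher in TGF-β1 cells of all 7 clusters shown.

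Genes that work with the 53 were taken from lists of co-receptors, growth factors that share neuropilins, cytoplasmic effectors and processing enzymes, and all genes of at least 1 CPM (5897 higher, 6219 lower, median -0.01, 3.45% more than 2-fold higher and 3.46% more than 2-fold lower) serve as their background. Of 7 co-receptors with at least 1 CPM, 5 were higher, 2 were lower and 0 passed 2-fold. *ITGB1*, the integrin chain bound by *SEMA7A*, had 709 and 915 CPM in control and TGF-β1 cells (log2 ratio 0.37, 0.36 to 0.38), its partner chain *ITGA1* had 149 and 219.9 CPM (0.56, 0.54 to 0.59), and *PTK7*, a pseudokinase that associates with plexins, had 101 and 154 CPM (0.61, 0.58 to 0.63). *MET*, the receptor tyrosine kinase that associates with class B plexins, had 63.0 and 49.5 CPM (-0.35, -0.39 to -0.31). The growth factors that bind neuropilins differed in direction. *VEGFA*, a ligand of neuropilin 1, had 23.4 and 48.8 CPM (1.06, 1.01 to 1.11), with 0.99 in cells with no *KRT8* UMI (a split chosen after seeing the data), and *VEGFC*, a ligand of neuropilin 2, had 152 and 87.2 CPM (-0.80, -0.83 to -0.77). Only these 2 of the 4 listed growth factors found had at least 1 CPM.

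Of 30 cytoplasmic effectors of semaphorins and plexins, 17 were higher and 13 lower, with a median log2 ratio of 0.06, and at 1.5-fold 3 were higher (beside 7.64% of all genes) and 5 lower (beside 9.36%), of which not all lower ones are named. The 1 gene past 2-fold was *MICAL2*, an oxidase that acts on actin, with 100.1 and 258 CPM (1.36, 1.34 to 1.39). *TAGLN2*, an actin-binding protein, had 772 and 1318 CPM (0.77, 0.76 to 0.78), and the small GTPase *MRAS* had 64.0 and 105 CPM (0.72, 0.69 to 0.75). *DPYSL2*, a collapsin response mediator downstream of *SEMA3A*, had 49.3 and 31.3 CPM (-0.66, -0.70 to -0.61), whereas the related *DPYSL3* with 188 and 238 CPM (0.34, 0.32 to 0.36) and *DPYSL4* with 3.84 and 5.52 CPM (0.53, 0.40 to 0.66), both named after their values were seen, were higher. *SH3BP1*, also named after its values were seen, had 5.24 and 3.06 CPM (-0.78, -0.92 to -0.64). The effectors thus moved in both directions, as their receptors did.

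Of 27 effectors of Eph receptors and ephrins, 15 were higher and 12 lower, with a median log2 ratio of 0.18, and 4 passed 2-fold, all higher, beside 3.45% of all genes. *ANKS1B*, an adaptor, had 6.85 and 22.6 CPM (1.72, 1.64 to 1.81), and the kinase *TNK2* had 8.55 and 18.0 CPM (1.07, 0.99 to 1.16). The other 2, *TIAM1* at 0.884 and 4.46 CPM (2.34, 2.11 to 2.57) and *VAV3* at 1.17 and 2.66 CPM (1.18, 0.96 to 1.40), both activators of Rac, were named after their values were seen. Further genes with large ratios were *SDCBP*, the syntenin scaffold bound by ephrin-B tails, with 274 and 158 CPM (-0.79, -0.81 to -0.77), and the adaptor *GRB10* with 142 and 215 CPM (0.59, 0.57 to 0.62). None of the 27 was more than 2-fold lower.

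Of 15 proteases, or subunits of proteases, that process semaphorins, ephrins or their receptors, 7 were higher and 8 lower. Their median log2 ratio was -0.01, and 3 were more than 2-fold higher, beside 3.45% of all genes. *ADAM12* had 93.7 and 225 CPM (1.27, 1.24 to 1.29). The other 2, *MMP9* at 4.07 and 11.7 CPM (1.52, 1.40 to 1.63) and *ADAMTS4* at 2.05 and 4.23 CPM (1.04, 0.88 to 1.21), were likewise named after their values were seen. *FURIN*, the convertase that processes class 3 semaphorins, had 14.2 and 19.4 CPM (0.45, 0.38 to 0.52), the related *PCSK5* had 219.6 and 197 CPM (-0.15, -0.17 to -0.14), *MMP2* had 276 and 367 CPM (0.41, 0.40 to 0.43), and *ADAM10*, the sheddase of ephrin-A ligands, had 37.6 and 33.8 CPM (-0.15, -0.20 to -0.11). Most of the processing enzymes thus lay close to their control level.

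Markers of cell types and of the response to TGF-β1 were read in the same cells. All 10 listed TGF-β response genes were higher after TGF-β1 and 5 of them passed 2-fold, namely *TGFBI* (2.32), *PMEPA1* (2.13), *FN1* (1.65), *LOX* (1.38) and *SMAD7* (1.05), of which *SMAD7* lay at 0.99 in cells with no *KRT8* UMI. All 9 fibroblast markers were present, from *COL1A1* at 5608 and 6376 CPM down to *PDGFRB* at 80.1 and 49.0 CPM. Of these, 5 were higher and 4 lower after TGF-β1. More than 1.5-fold higher was 1 of them, *FN1* (1.65). More than 1.5-fold lower were 3, namely *PDGFRB* (-0.71), *VIM* (-0.97) and *THY1* (-1.30). Of 7 epithelial markers found, the sum was 115 CPM in control and 5.32 CPM in TGF-β1 cells, most of it *KRT8* (114 and 4.48 CPM). *CLDN4* went the other way with 19 and 49 UMIs, while *MUC1* had 140 and 117 and *ESRP1* 10 and 6. *EPCAM* had 1 and 3 UMIs, *CDH1* 6 and 4, and *CLDN3* 0 and 4. Fibroblast markers were thus abundant in both libraries, and some of them differed between the libraries, as did this keratin. In the 2588 control and 4262 TGF-β1 cells with no *KRT8* UMI, the log2 ratio was -1.47 for *SEMA3A*, 2.15 for *PLXNA4*, 1.70 for *EPHA6*, 1.31 for *PLXNA2*, 1.20 for *SEMA7A* and 1.02 for *SEMA6D*.

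The 8 endothelial markers summed to 3.84 and 3.65 CPM, led by *EGFL7* (2.18 and 2.18 CPM), with *PECAM1* at 9 and 8 UMIs and *CDH5* at 3 and 2. The sums hide opposite differences, with *EMCN* (88 and 8) and *VWF* (99 and 45) lower and *CLDN5* (117 and 213) higher by UMIs. Of 8 glial and neuronal markers found, the sum was 7.67 and 13.1 CPM, led by *SNAP25* (7.08 and 12.3 CPM), with *SOX10* at 2 and 1 UMIs and *STMN2* at 0 in both. Of the endothelial, glial and neuronal markers, *EGFL7* and *SNAP25* were the ones that averaged 1 CPM or more. The 7 mural markers summed to 705 and 633 CPM, led by *DES* (646 and 569 CPM) and *RGS5* (51.7 and 61.1 CPM), with *MCAM* at 5.78 and 1.75 CPM, *CSPG4* at 1.07 and 1.11 CPM and *KCNJ8* at 0 in both, and their part in the results was not tested. The 10 cell cycle markers found summed to 64.2 and 53.2 CPM, with 9 of them lower after TGF-β1 and *AURKA*, the most abundant, higher (16.1 and 24.2 CPM). Without the 100 control and 107 TGF-β1 cells that carried at least 3 of these markers after thinning, *SEMA3A* had a log2 ratio of -1.49 and *PLXNA4* of 2.30.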

How the data were processed

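The authors deposited, per library, UMI counts for each gene and cell barcode, as whole numbers without normalization. Per the labels and methods they were made with Cell Ranger 7.1.0 against EquCab3.0, whereas the file header names 8.0.1. Whether intronic reads were counted is not given in the sources used here, and the levels of long genes, among them *EPHA6*, *PLXNA4*, *SEMA3A* and *SEMA6D*, may depend on it. The study's cell filters (at least 20000 UMIs, at least 3500 genes, under 4% mitochondrial UMIs) had not been applied to the files and were applied here. Doublets, which the study removed by genotype with Souporcell, were not called. Summing over kept cells and scaling to CPM were done in Python 3.11.15 (numpy 2.4.6; pandas 2.3.3), and exact intervals came from scipy 1.17.1. Ratios carry no pseudocount, and the steps were tested on simulated data. Each cell was thinned with a fixed seed to 20000 UMIs for shares. Clusters were built in Seurat 5.3.0 (R 4.3.3) with log normalization, 30 dimensions, canonical correlation integration and resolution 0.5, and they were not matched to those of the study. All 53 symbols were also found in the RefSeq table of the assembly TB-T2T, which gave neighbours only. The study's edgeR test needs the mares and was not run.

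The members and lists were chosen with earlier results of these data known. Genes of at least 1 CPM were named with both levels, those of at least 10 CPM or past 2-fold in full, and of each list up to 5 with the largest ratio and at least 10 CPM, of which not all are named. The listed symbols *TIMD4*, *VEGFB*, *GIPC1*, *NCK1*, *PSENEN*, *MKI67*, *KRT18*, *KRT19* and *NGFR* were not found. The cells given the protein MFGE8 were not analysed here.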

Additional observations from a re-analysis of the deposited data

How the results depend on the processing

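The 5 genes more than 2-fold higher and the lower *SEMA3A* were the same genes under all 10 alternatives that recompute the ratios: all deposited barcodes, 10000 UMIs as minimum, 6% mitochondrial UMIs as limit, no cells above the 98th UMI percentile, median-of-ratios and TMM scaling, the mean of per-cell CPM, no cycling cells, equal cluster shares, and, chosen after seeing the data, only cells without *KRT8*. None of the 34 genes changed sign. The last alternative kept 67.0% of control and 94.4% of TGF-β1 cells, as *KRT8* itself was lower after TGF-β1, so it does not choose like cells in both libraries. *EPHB3* joined *SEMA3A*, giving 2 lower genes, with the mean of per-cell CPM (-1.01) and with equal cluster shares (-1.01), being close to the limit. The scalings moved every ratio by 0.0108 and 0.00271.

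The minimum level mattered more. At 10 CPM only *PLXNA2* was left as 1 higher gene, as the other 4 lie below that level, and the median turned from 0.12 to -0.10. Without a CPM minimum but with more than 3 UMIs in a library, 6 genes were higher (with *SEMA6A*) and 5 lower (with *EPHA5*, *SEMA3B*, *SEMA4D* and, on 4 and 2 UMIs, *SEMA3G*). The shares and the median of all genes were not set beside the counts at 10 CPM or without a minimum. Those counts are therefore not read as particular to the guidance genes. A 1.5-fold limit gave 7 higher and 5 lower genes. The number of genes with 1 direction in every cluster was 15, and 16 and 11 at resolutions of 0.3 and 0.8, with 6 and 10 clusters. These were 47.1% and 32.4% of the 34 genes, beside 47.6% and 34.7% of all genes. *PLXNB1*, *PLXND1* and *SEMA4B* were not among them at either resolution, nor was *EPHB3* at 0.8. *EPHA6*, *PLXNA4*, *SEMA5A* and *SEMA6D* joined at 0.3.

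Only counting error is covered by the intervals. Differences between mares, cultures and library preparations were not measured, and genes of a few CPM have shares set largely by depth.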

Other observations

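A second set of guidance genes, the netrins, slits, repulsive guidance molecules, their receptors, FLRT proteins and draxin, was read in the same cells from a list of 27 genes, all found by symbol. Of the 14 that averaged 1 CPM or more, 12 were lower and 2 higher after TGF-β1, with a median log2 ratio of -0.73, beside -0.01 for all 12116 genes and 0.12 for the 34 semaphorin, plexin, neuropilin, ephrin and Eph genes. More than 2-fold lower were 4 of the 14, beside 419 of the 12116 genes. *SLIT3*, a secreted ligand of ROBO receptors, had 45598 UMIs in the control and 14823 in the TGF-β1 library, 217 CPM (215 to 219) in control and 67.5 CPM (66.4 to 68.6) in TGF-β1 cells, a log2 ratio of -1.68 (-1.71 to -1.66), and was found in 86.3% (85.2% to 87.4%) of cells in the control and 55.3% (53.8% to 56.8%) in the TGF-β1 library after thinning. *NEO1*, the neogenin receptor of netrins and repulsive guidance molecules, had 19.9 and 8.88 CPM (-1.17, -1.25 to -1.09). The other 2 past the limit, the netrin receptor *UNC5D* with 12.1 and 4.37 CPM (-1.47, -1.57 to -1.36) and *RGMA*, a ligand of neogenin, with 4.35 and 1.82 CPM (-1.26, -1.43 to -1.08), were named after their values were seen.

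Further lower genes that averaged 10 CPM or more included *UNC5B* with 27.2 and 17.8 CPM (-0.61, -0.67 to -0.55) and *NTNG1* with 15.7 and 10.5 CPM (-0.58, -0.65 to -0.50). Smaller differences toward lower levels were those of *FLRT2* with 14.4 and 13.1 CPM (-0.15), *FLRT3* with 5.10 and 4.02 CPM (-0.34) and *NTN1* with 6.43 and 5.41 CPM (-0.25). At lower levels, and named after their values were seen, *UNC5A* had 4.45 and 2.33 CPM (-0.93, -1.09 to -0.78), *NTN4* had 10.8 and 5.71 CPM (-0.92, -1.02 to -0.82) and the slit receptor *ROBO1* had 11.7 and 6.50 CPM (-0.85, -0.95 to -0.76). *SLIT2*, the paralog of *SLIT3*, went the other way, with 10.1 and 13.6 CPM (0.42, 0.34 to 0.50), and *RGMB* was the other higher gene, with 17.0 and 21.9 CPM (0.36, 0.30 to 0.42). No relation between the lower *SLIT3* and the lower *SEMA3A* was tested.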
